A study of Mus musculus with 24 samples.

Results

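Surfactant and alveolar type 2 genes are described here in the lungs of mice raised in room air or in hyperoxia. The 10 genes were taken by symbol from the lung table of 36109 genes: the surfactant proteins Sftpa1, Sftpb, Sftpc and Sftpd, the lipid transporter Abca3, the lamellar body proteins Lamp3 and Napsa, the phosphate transporter Slc34a2, the lipid enzyme Lpcat1 and the transcription factor Etv5. All 10 were found once, and all 10 passed the filter on low counts in the lung. RNA-seq was performed on 12 whole lungs and 12 whole retinas, with 3 mice in each of 4 groups per tissue: wild type in room air (WT-RA), wild type in hyperoxia (WT-O2), knockout in room air (KO-RA) and knockout in hyperoxia (KO-O2). The knockout mice (GSDMD KO, C57/B6) were homozygous in all their tissues for a deletion of 38 base pairs in exon 5 of Gsdmd, the gene of the pore-forming protein gasdermin D, and the WT mice were littermates from crosses of heterozygotes. Lung mice breathed 85% oxygen or room air (21%) from postnatal day 1 to 14 and their lungs were collected on day 15, a model of bronchopulmonary dysplasia. Retina mice breathed 75% oxygen from day 7 to 12 and then recovered in room air, or breathed room air throughout. Their retinas were collected on day 18, a model of retinopathy of prematurity.

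Alveolar type 2 cells are the epithelial cells of the alveolus that make pulmonary surfactant, the film of phospholipid and protein that keeps the air spaces open at low lung volume. They build it in lamellar bodies, release it into the airspace and take part of it back, and they also serve as progenitors of the flat type 1 cells. Surfactant proteins B and C are small and hydrophobic and act in the lipid film, whereas surfactant proteins A and D are collectins of the innate defence.

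Mice within a group are named by number only, and the numbers pair no mice across groups. The label numbers of KO-O2 mice 1 and 2 lie far below those of all other lungs. In both tissues the WT mice hold a run of numbers that includes no knockout mouse. The labels do not say what the numbers stand for, and in comparisons of knockout with WT they cannot be told apart from genotype. The lung libraries held 28763661 to 29604254 counts (median 29226529), so each of the 10 genes was counted at least 2521 times in every lung. Levels are given as CPM, the library's counts scaled to a common total, after TMM scaling, as mean ± SD of 3 mice. Fold changes, standard errors (SE) and adjusted p come from edgeR's quasi-likelihood test over all 16819 genes tested in the lung, with Benjamini-Hochberg adjustment, with calls made where the adjusted p lay under 0.1. Gsdmd itself was counted at 40.6 to 42.3 CPM in the WT-RA mice, 32.1 to 36.4 in the WT-O2 mice, 22.6 to 24.8 in the KO-RA mice and 11.7 to 16.3 in the KO-O2 mice, and it was lower in KO-O2 than in WT-O2 by a log2 fold change of -1.33 (SE 0.11, edgeR adjusted p = 8.3e-05). Its counts in the knockout lungs came from a gene whose deletion is short, so they check the labels by level only. Y-linked genes were present in 3 of 3 lungs of KO-O2 and 2 of 3 of KO-RA, but in 1 of 3 of WT-O2 and 0 of 3 of WT-RA. In the retina they were present in all 6 room air mice, but in 1 of 3 of WT-O2 and 1 of 3 of KO-O2. Summed liver transcripts were at 185 CPM in KO-O2 mouse 1 against 1.55 to 3.65 CPM in the other 11 lungs. Erythroid transcripts summed to 15826 to 18230 CPM in WT-RA lungs and 2990 to 4218 CPM in WT-O2 lungs. In the knockout they summed to 12750 to 26950 CPM in room air and 6042 to 30038 CPM in hyperoxia. KO-O2 mice 1 and 2 were at 26389 and 30038 CPM and KO-O2 mouse 3 at 6042 CPM. WT-RA mouse 3 was the lowest of its group in 8 of the 10 genes described here.

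RefSeq start sites on build GRCm38.p6 were at hand for 7 of the 10 genes, and were not used for Sftpc, Sftpd and Napsa. The 250 bases before the start are shown for 3 abundant members, Sftpa1, the gene with the largest fall in hyperoxia, and Sftpb and Slc34a2, which were not called in either genotype. Capitals mark matches, on either strand, to letters typical of the lung factor NKX2-1 (CTCAAG), forkhead factors (TGTTTNC), C/EBP factors (TTGCNNAA), ETS factors (CCGGAA), an E-box (CACGTG) and a TATA box (TATAAA).
Sftpa1, chr14:41131538-41131787, plus strand: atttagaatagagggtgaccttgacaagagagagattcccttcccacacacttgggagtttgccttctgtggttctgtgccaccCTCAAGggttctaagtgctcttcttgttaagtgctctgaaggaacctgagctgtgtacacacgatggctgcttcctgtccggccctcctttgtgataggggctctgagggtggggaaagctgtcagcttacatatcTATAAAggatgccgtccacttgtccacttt
Sftpb, chr6:72304360-72304609, plus strand: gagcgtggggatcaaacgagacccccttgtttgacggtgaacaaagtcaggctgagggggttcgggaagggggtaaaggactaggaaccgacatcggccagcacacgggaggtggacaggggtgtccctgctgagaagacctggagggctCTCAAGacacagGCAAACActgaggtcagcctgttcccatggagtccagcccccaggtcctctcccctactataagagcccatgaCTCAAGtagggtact
Slc34a2, chr5:53049103-53049352, plus strand: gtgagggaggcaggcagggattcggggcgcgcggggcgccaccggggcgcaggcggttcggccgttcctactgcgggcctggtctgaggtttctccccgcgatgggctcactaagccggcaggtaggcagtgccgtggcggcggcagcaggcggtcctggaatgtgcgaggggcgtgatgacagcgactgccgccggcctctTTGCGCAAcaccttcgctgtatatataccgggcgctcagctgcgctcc

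Sftpa1 held a CTCAAG match beginning 166 bases before the start, and TATAAA 30 bases before it. Sftpb held CTCAAG at 100 and again at 15 bases before the start, with a forkhead-type match on the minus strand at 88. Slc34a2 held a C/EBP-type match at 48 bases before the start. Among the other promoters, Lamp3 held forkhead-type matches at 162 and 92 bases, Etv5 held one at 183 bases on the minus strand, Abca3 held an ETS-type match at 156 bases, and the letters searched were not in the Lpcat1 window. CTCAAG was thus in 2 of the 8 windows of these 7 genes (Etv5 has 2 starts), against 13.3% of all 32851 promoters of the same length. The same shares over all promoters were 17.8% for TGTTTNC, 9.56% for TTGCNNAA, 12.0% for CCGGAA, 12.4% for TATAAA and 6.02% for CACGTG. A match describes the letters and is no shown binding site.

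The order of the 10 genes in room air was led by the hydrophobic surfactant proteins. Per kilobase of the principal transcript, Sftpc stood at 16886 ± 831 CPM per kilobase in WT-RA lungs, Sftpb at 2538 ± 125 and Sftpa1 at 538 ± 106. Below them came Slc34a2 at 355 ± 44.8 and Sftpd at 346 ± 56.5 CPM per kilobase, whose ranges over the 3 mice overlapped. Napsa followed at 191 ± 9.34, Lamp3 at 105 ± 20.1 and Lpcat1 at 91.5 ± 3.14 CPM per kilobase, the last pair again overlapping, and Abca3 at 62.5 ± 8.17 and Etv5 at 26.5 ± 2.41 closed the order. Sftpc alone made up 1.34 ± 0.0578% of all counts in WT-RA lungs and 0.927 ± 0.0968% in WT-O2 lungs. The 10 genes together took 2.08% to 2.35% of the counts in WT-RA and 2.21% to 2.35% in KO-RA lungs, against 1.49% to 1.79% in WT-O2 and 1.43% to 1.65% in KO-O2 lungs, so that the hyperoxia groups lay below the room air groups without overlap.

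Hyperoxia in WT lungs lowered part of the surfactant set. Sftpa1, Sftpc, Napsa, Lpcat1 and Abca3 fell, with log2 fold changes of -0.84 to -0.26, and Sftpb, Sftpd, Lamp3, Slc34a2 and Etv5 did not pass the test. None of the 10 was called higher, and none reached a 2-fold change, which 11.6% of all genes did. The 5 of 10 members called compare with 49.2% of all genes tested in this comparison, and the 5 called lower with 24.7% of all genes called lower. The median log2 fold change of the 10 was -0.25, beside -0.01 over all genes tested. In whole lung RNA, fewer type 2 cells and less RNA of a gene per type 2 cell cannot be told apart.

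**Figure D1:**
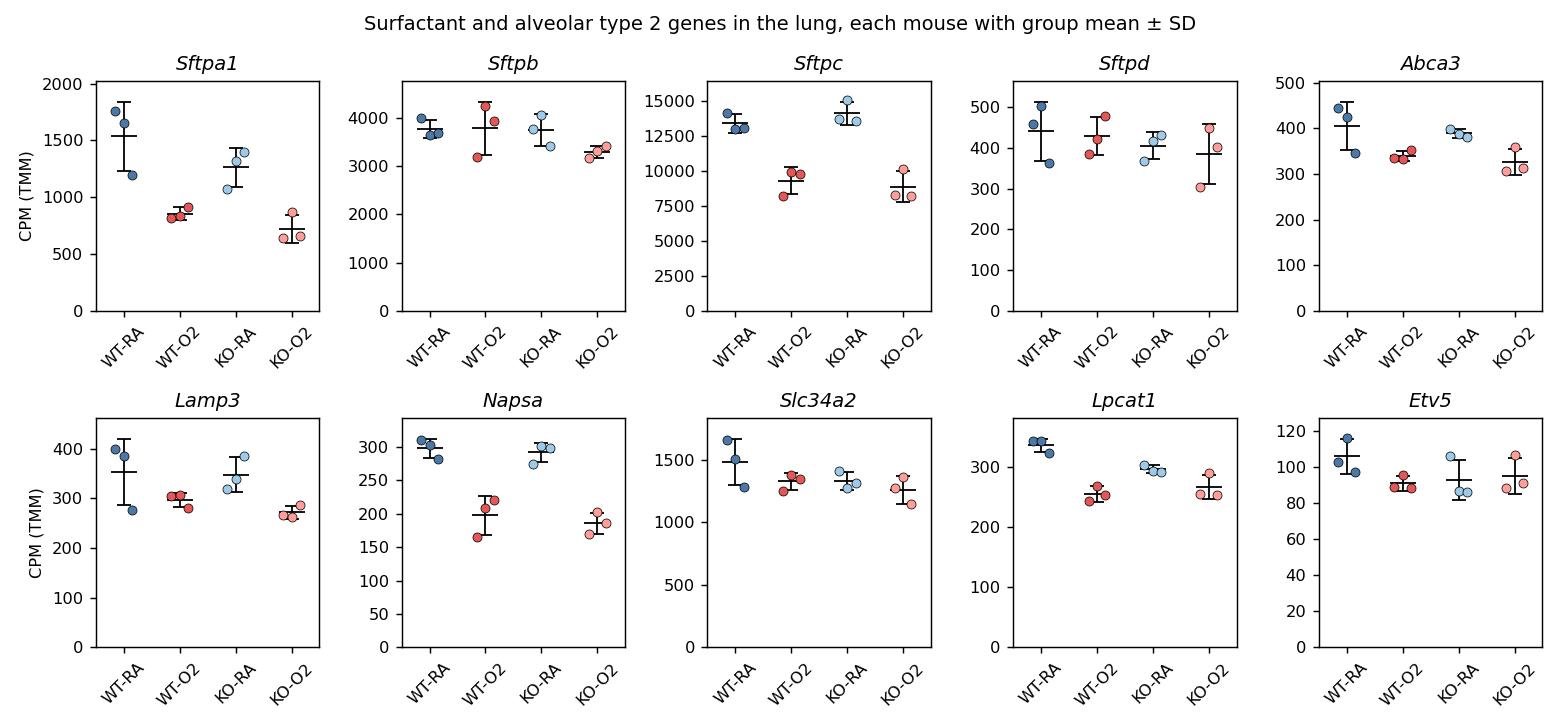
Level of each gene in CPM (vertical axes, from 0) in every lung, by group (3 mice each), with the group mean and SD as bars. In Sftpa1, Sftpc and Napsa all hyperoxia lungs lie below all room air lungs, whereas the groups of Sftpb and Sftpd overlap.

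Sftpa1, a collectin that binds microbes and lipid, had the largest fall. It was counted at 1760, 1655 and 1192 CPM in the WT-RA mice and at 814, 838 and 917 CPM in the WT-O2 mice. Every hyperoxia lung was below every room air lung, and the log2 fold change was -0.84 (SE 0.15, edgeR adjusted p = 6.1e-04). Sftpd, the other collectin of the set, was at 458, 503 and 362 CPM in WT-RA and 385, 422 and 478 CPM in WT-O2. Its groups overlapped, and its log2 fold change of -0.04 had a 95% interval of -0.36 to 0.27 (edgeR adjusted p = 0.85).

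Sftpc, which encodes the most type 2-restricted surfactant protein, fell from 14132, 12957 and 13032 CPM in WT-RA to 8176, 9904 and 9782 CPM in WT-O2. The gap between the groups was wider than the range within either of them, and the log2 fold change was -0.53 (SE 0.11, edgeR adjusted p = 0.0018). Sftpb, whose product packs the lamellar body and is needed for the film to form, was at 3995, 3648 and 3701 CPM in WT-RA and 3183, 4247 and 3936 CPM in WT-O2. WT-O2 mouse 1 was the lowest and WT-O2 mouse 2 the highest of the 6 lungs. The log2 fold change of Sftpb was 0.0029 with a 95% interval of -0.23 to 0.24 (edgeR adjusted p = 0.99), an interval that holds no fall as large as the value of Sftpc.

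Napsa, the aspartic protease that trims the precursors of surfactant proteins B and C, was at 310, 303 and 282 CPM in WT-RA and 165, 209 and 220 CPM in WT-O2. The groups did not overlap, and the log2 fold change was -0.59 (SE 0.10, edgeR adjusted p = 4.0e-04). Lpcat1, which remodels phosphatidylcholine into the saturated form of surfactant, was at 343, 343 and 323 CPM in WT-RA and 243, 268 and 253 CPM in WT-O2. Its groups were also apart, with a log2 fold change of -0.40 (SE 0.08, edgeR adjusted p = 8.5e-04).

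Abca3, the pump that loads phospholipid into lamellar bodies, was at 445, 425 and 345 CPM in WT-RA and 334, 332 and 352 CPM in WT-O2. WT-O2 mouse 3 lay above WT-RA mouse 3, so the groups overlapped, and the fall of -0.26 on the log2 scale (SE 0.10, edgeR adjusted p = 0.047) was no longer called when WT-RA mouse 1 (adjusted p = 0.18), WT-RA mouse 2 (0.15), WT-O2 mouse 1 (0.11) or WT-O2 mouse 2 (0.11) was left out. Lamp3, a membrane protein of the lamellar body, was at 399, 385 and 276 CPM in WT-RA and 304, 307 and 280 CPM in WT-O2. WT-RA mouse 3 was below all 3 WT-O2 mice, and the log2 fold change of -0.25 (SE 0.12) was not called by edgeR (adjusted p = 0.11). DESeq2 called Lamp3 at the margin (-0.25, adjusted p = 0.10 as rounded, under the threshold).

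Slc34a2, which takes up phosphate from the alveolar fluid, was at 1654, 1509 and 1283 CPM in WT-RA and 1253, 1380 and 1350 CPM in WT-O2, overlapping groups with a log2 fold change of -0.16 (SE 0.10, edgeR adjusted p = 0.24). Etv5, an ETS factor downstream of FGF signalling that maintains type 2 identity, was at 103, 116 and 97.3 CPM in WT-RA and 88.8, 95.8 and 88.7 CPM in WT-O2. The groups of Etv5 did not overlap, but its log2 fold change of -0.21 (SE 0.10) had an edgeR adjusted p of 0.10 and was not called. It was called without normalization factors (-0.22, edgeR adjusted p = 0.089) and in a fit of the 6 WT lungs alone (-0.22, edgeR adjusted p = 0.085). Non-overlap in either direction was found for 49.8% of all genes in this comparison. Without WT-RA mouse 3, the number of members called rose from 5 to 8 (48.6% of all genes were called in that fit), as Lamp3 (log2 fold change -0.40, edgeR adjusted p = 0.0028), Slc34a2 (-0.25, 0.050) and Etv5 (-0.26, 0.056) were then called lower too.

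Hyperoxia in GSDMD-KO lungs lowered part of the set too. Sftpa1, Sftpc, Napsa, Lamp3 and Abca3 fell, with log2 fold changes of -0.81 to -0.25, 5 of 10 members against 46.7% of all genes called and 23.4% of all genes called lower. None was called higher or reached 2-fold (10.6% of all genes), and the median log2 fold change of the 10 was -0.22. Sftpa1 was at 1072, 1321 and 1401 CPM in KO-RA and 639, 865 and 655 CPM in KO-O2, groups without overlap (as in 52.4% of all genes), with a log2 fold change of -0.81 (SE 0.15, edgeR adjusted p = 8.7e-04). Sftpc was at 13684, 15031 and 13549 CPM in KO-RA and 8229, 10110 and 8202 CPM in KO-O2, again without overlap, and its log2 fold change was -0.67 (SE 0.11, edgeR adjusted p = 3.0e-04). Both of these genes stood highest in KO-O2 mouse 2 among the KO-O2 lungs.

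Napsa was at 275, 302 and 299 CPM in KO-RA and 170, 202 and 186 CPM in KO-O2, and its log2 fold change was -0.65 (SE 0.10, edgeR adjusted p = 1.9e-04). Lamp3 was at 318, 339 and 385 CPM in KO-RA and 267, 262 and 287 CPM in KO-O2. The groups of both genes did not overlap, and Lamp3 had a log2 fold change of -0.35 (SE 0.12, edgeR adjusted p = 0.031), which was not called without KO-RA mouse 3 (adjusted p = 0.12). Abca3 was at 399, 387 and 381 CPM in KO-RA and 307, 360 and 313 CPM in KO-O2, apart by group, with a log2 fold change of -0.25 (SE 0.10, edgeR adjusted p = 0.051). This call was lost without KO-RA mouse 1 (adjusted p = 0.12), KO-O2 mouse 1 (0.16) or KO-O2 mouse 3 (0.13). Without KO-O2 mouse 1, the lung with liver transcripts, 4 of the 10 genes were called.

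The remaining genes did not pass the test in GSDMD-KO. Sftpb was at 3777, 4062 and 3416 CPM in KO-RA and 3173, 3314 and 3423 CPM in KO-O2, with a log2 fold change of -0.18 (95% interval -0.42 to 0.05, edgeR adjusted p = 0.21). Lpcat1 was at 304, 294 and 292 CPM in KO-RA and 256, 290 and 253 CPM in KO-O2, and its log2 fold change of -0.16 (SE 0.08) had an edgeR adjusted p of 0.13, although its groups did not overlap. Lpcat1 was called when no normalization factors were used (-0.20, edgeR adjusted p = 0.044), with DESeq2 (-0.15, adjusted p = 0.078) and without KO-O2 mouse 2 (-0.21, edgeR adjusted p = 0.066). Sftpd (log2 fold change -0.08), Slc34a2 (-0.08) and Etv5 (0.04) overlapped between KO-RA and KO-O2. Their 95% intervals ran from -0.39 to 0.24, -0.30 to 0.14 and -0.18 to 0.25.

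**Figure D2:**
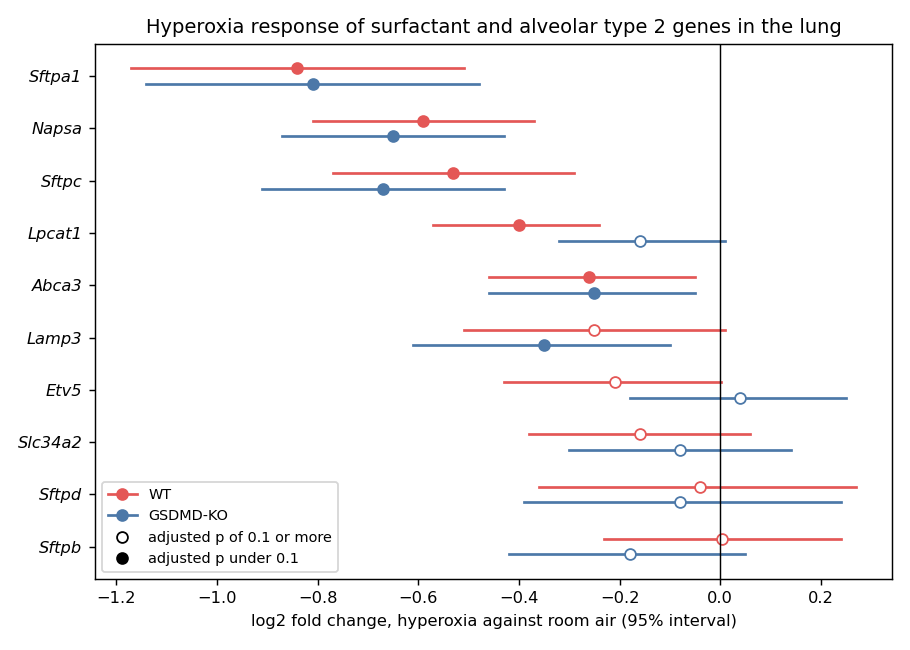
Log2 fold change of hyperoxia against room air (horizontal axis) with its 95% interval for each gene in WT and in GSDMD-KO lungs (3 mice per group), filled where the adjusted p was under 0.1. Sftpa1, Napsa and Sftpc lie farthest below 0 in both genotypes, and the intervals of Sftpb, Sftpd, Slc34a2 and Etv5 include 0 in both.

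The effect of genotype was tested directly, since the study asked whether loss of GSDMD changes the response to hyperoxia. Between KO-O2 and WT-O2, 0 of the 10 genes were called by edgeR, 0 had an unadjusted p under 0.05, and DESeq2 also called 0. Over all genes edgeR called 0.0416%, DESeq2 called 0.517%, and 6.21% had an unadjusted p under 0.05 in edgeR. The log2 fold changes of the 10 ran from -0.25 for Sftpa1 to 0.07 for Etv5 and Lpcat1. The 95% interval of Sftpa1 was -0.58 to 0.08, that of Sftpb was -0.43 to 0.04 and that of Sftpc was -0.31 to 0.17. All 10 genes overlapped between these groups, where 12.2% of all genes did not. Differences inside these intervals were not excluded with 3 mice per group.

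In room air, KO-RA against WT-RA gave 0 of 10 calls by edgeR and by DESeq2 (0.488% and 2.49% of all genes). Lpcat1 was the 1 member of 10 with an unadjusted p under 0.05 (10.5% of all genes), at a log2 fold change of -0.18 (SE 0.08, edgeR adjusted p = 0.43), and its 3 KO-RA lungs were below its 3 WT-RA lungs, as in 7.90% of all genes. The interaction of genotype and hyperoxia was called for 0 of the 10 genes by both tools (0.00595% of all genes by edgeR and 0.654% by DESeq2). Lpcat1 was again the 1 member of 10 with an unadjusted p under 0.05 (6.72% of all genes), with a difference between the genotypes' log2 fold changes of 0.25 (SE 0.11, 95% interval 0.01 to 0.48, edgeR adjusted p = 0.71). Etv5 had a difference of 0.25 (95% interval -0.05 to 0.55, edgeR adjusted p = 0.81), and Sftpc one of -0.15 (95% interval -0.48 to 0.19, edgeR adjusted p = 0.93). The response of Lpcat1, called in WT but not in GSDMD-KO, was therefore not shown to differ between the genotypes, nor was that of Lamp3, called by edgeR in GSDMD-KO but not in WT (difference -0.10, 95% interval -0.47 to 0.26, edgeR adjusted p = 0.96).

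The surrounding cell type lists give the setting of these values. Over all genes tested, 24.5% were called higher and 24.7% lower in WT, and 23.3% higher and 23.4% lower in GSDMD-KO, the shares beside which the lists that follow are set. Summed over the 10 genes, the level was 22112 ± 1372 CPM in WT-RA and 16869 ± 1674 CPM in WT-O2 lungs, and in the knockout 22262 ± 1088 CPM in room air and 15661 ± 1443 CPM in hyperoxia. Over the same lungs the pan-epithelial list (Epcam, Cdh1 and keratins among its 17 genes) summed to 1393 to 1507 CPM in WT-RA and 1937 to 2142 CPM in WT-O2. In the knockout it summed to 1426 to 1476 CPM in KO-RA and 1920 to 2205 CPM in KO-O2. In WT, 14 of its 17 genes were called higher and 0 lower (24.5% and 24.7% of all genes), and in GSDMD-KO 12 higher and 0 lower (23.3% and 23.4%). The sum of the surfactant set was thus lower in lungs whose pan-epithelial sum was higher. Sftpc made up 13374 of the mean sum of 22112 CPM in WT-RA and 9287 of 16869 CPM in WT-O2. In the knockout it made up 14088 of 22262 CPM in KO-RA and 8847 of 15661 CPM in KO-O2. The pan-epithelial list shares Krt8, Krt19 and Cldn4 with the list of transitional epithelium described next, so the counts and sums of these lists are not independent.

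Markers of alveolar type 1 cells summed to 9262 to 11459 CPM in WT-RA and 9436 to 10513 CPM in WT-O2, and of 17 such genes 6 were called higher and 6 lower in WT, against 24.5% and 24.7% of all genes, and 6 and 5 in GSDMD-KO, against 23.3% and 23.4%. The list of transitional epithelium, the state between type 2 and type 1 cells marked by Krt8, Cldn4 and Sfn, had 14 of 17 tested genes called higher and 1 lower in WT, and 15 higher and 0 lower in GSDMD-KO. Its sum was 1359 to 1480 CPM in WT-RA and 3053 to 3953 CPM in WT-O2. Krt8 rose by 0.64, Cldn4 by 1.51 and Sfn by 1.16 on the log2 scale in WT (edgeR adjusted p = 3.2e-05, 1.0e-04 and 1.0e-06). Endothelial genes were called lower in 8 of 11 cases in WT (24.7% of all genes) and 6 of 11 in GSDMD-KO (23.4%), and 1 of them was called higher in each genotype. They summed to 4972 to 5467 CPM in WT-RA, 3527 to 3912 in WT-O2, 4433 to 4726 in KO-RA and 3296 to 4004 in KO-O2. In KO-RA against WT-RA, 0 of these 11 genes were called, and 5 had an unadjusted p under 0.05 in edgeR (10.5% of all genes). Erythroid genes were called lower in 8 of 9 cases in WT (median log2 fold change -2.40) and in 2 of 9 in GSDMD-KO (median -0.02). The interaction of genotype and hyperoxia was called by edgeR for 0 genes of either list, with an unadjusted p under 0.05 for 2 of the 11 endothelial and 7 of the 9 erythroid genes. Fibroblast genes summed to 7630 to 9353 CPM in WT-RA and 10766 to 13248 CPM in WT-O2, and to 8675 to 9676 CPM in KO-RA and 10326 to 12732 CPM in KO-O2, with 6 of 10 called higher and 3 lower in both genotypes. Club cell genes summed to 14584 to 17576 CPM in WT-RA and 12222 to 13195 CPM in WT-O2, and to 14084 to 17504 CPM in KO-RA and 9463 to 13778 CPM in KO-O2, so the groups of both lists were apart. Of 10 club cell genes, 3 were called higher and 2 lower in WT, and 3 higher and 5 lower in GSDMD-KO. Proliferation genes were called higher in 7 of 10 cases in WT and 1 of 10 in GSDMD-KO, a difference that was not tested for the list as a whole. Gene by gene, edgeR called the interaction for 0 of the 10, and 1 had an unadjusted p under 0.05. The difference between the genotypes was above 0 for 0 of the 10, with a median of -0.26. The part of these cell types in the values of the surfactant set was not tested.

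**Figure D3:**
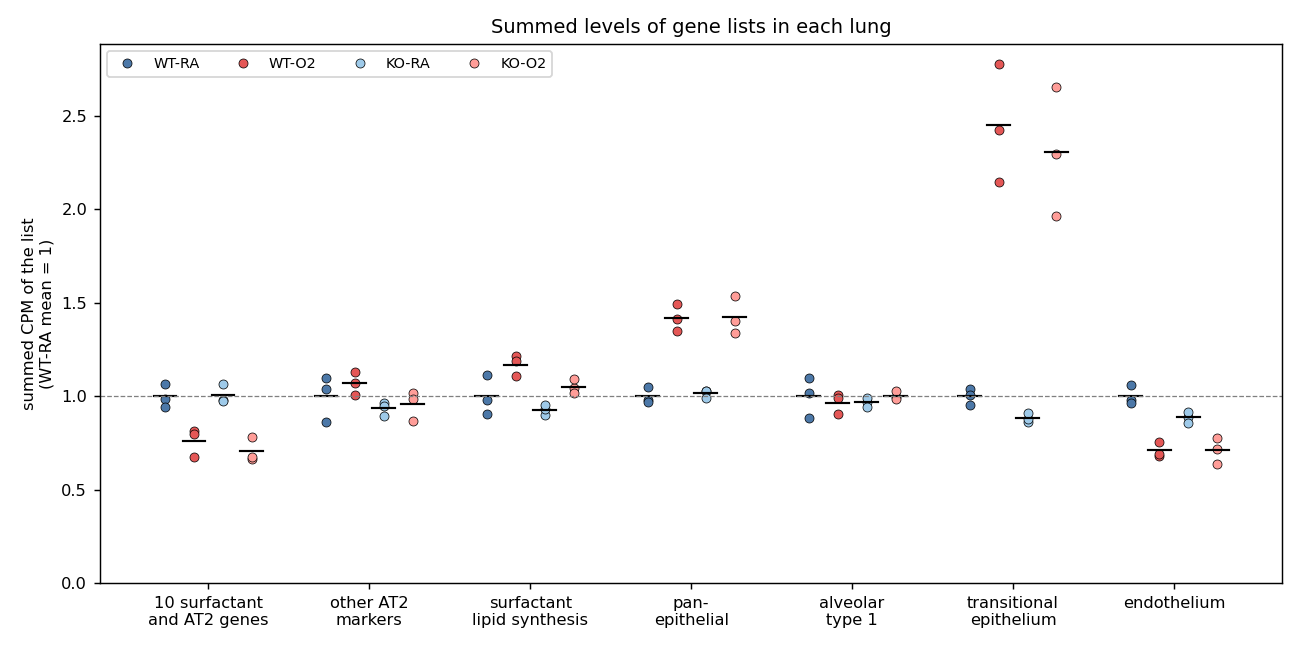
Summed CPM of each gene list in every lung, divided by the WT-RA mean of that list (vertical axis from 0), with bars at the group means (3 mice each). The 10 surfactant and type 2 genes and the endothelial list lie below 1 in all 6 hyperoxia lungs, and the pan-epithelial and transitional lists lie above 1. The endothelial list also lies below 1 in all 3 KO-RA lungs.

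Other markers of type 2 cells moved in both directions. Of 19 such genes, 10 were called lower and 6 higher in WT, and 10 lower and 7 higher in GSDMD-KO. Acoxl, an acyl-CoA oxidase-like gene, went from 41.1 ± 0.505 to 5.07 ± 1.65 CPM in WT (log2 fold change -3.02, SE 0.18, edgeR adjusted p = 2.7e-08), and in GSDMD-KO its level was 44.8 ± 5.86 CPM in room air and 4.48 ± 0.492 CPM in hyperoxia. Lyz1, a lysozyme carried by lamellar bodies, went from 326 ± 35.8 to 101 ± 11.8 CPM in WT (-1.69, SE 0.13, edgeR adjusted p = 1.4e-07). Lcn2, an iron-scavenging protein induced in stressed epithelium, rose from 152 ± 15.1 to 580 ± 61.0 CPM in WT (1.93, SE 0.15, edgeR adjusted p = 4.8e-07). The sum of the 19 markers was 5242 to 6674 CPM in WT-RA and 6113 to 6856 CPM in WT-O2, with overlap.

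Genes of surfactant lipid synthesis were mostly higher where they changed. In WT, 13 of 26 were called higher and 3 lower, against 24.5% and 24.7% of all genes, and in GSDMD-KO 10 higher and 3 lower, against 23.3% and 23.4%. Srebf1, the factor that switches on fatty acid synthesis, rose from 97.6 ± 0.886 to 146 ± 8.56 CPM in WT (log2 fold change 0.58, SE 0.08, edgeR adjusted p = 5.9e-05), and Fasn, fatty acid synthase, from 399 ± 55.5 to 606 ± 55.5 CPM (0.61, SE 0.11, edgeR adjusted p = 4.2e-04). Both rose in GSDMD-KO as well, by 0.53 and 0.49 on the log2 scale. Other cells of the lung also make lipid, and the cell type behind these counts was not measured.

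Genes of the lamellar body and its secretion were called higher in 10 and lower in 5 of 23 cases in WT, and in 11 and 4 in GSDMD-KO. P2ry2, the nucleotide receptor that triggers surfactant release, rose from 19.9 ± 1.73 to 35.9 ± 3.35 CPM in WT (log2 fold change 0.85, SE 0.11, edgeR adjusted p = 1.9e-05). Anxa2, a membrane-fusion annexin, rose from 351 ± 30.3 to 550 ± 32.8 CPM (0.65, SE 0.08, edgeR adjusted p = 3.1e-05). Ggta1, a glycosyltransferase, fell from 78.1 ± 2.94 to 48.1 ± 4.89 CPM (-0.70, SE 0.08, edgeR adjusted p = 1.1e-05). In GSDMD-KO the log2 fold changes of these genes were 0.77, 0.49 and -0.40.

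Surfactant clearance, the work of alveolar macrophages and their growth factor signalling, had 6 of 15 genes called higher and 3 lower in WT, and 6 higher and 2 lower in GSDMD-KO. The median log2 fold change of the 15 was 0.12 in WT and 0.16 in GSDMD-KO, although their summed CPM was lower in hyperoxia. Cd36 made up 630 of a mean sum of 1579 CPM in WT-RA and 200 of 1158 CPM in WT-O2, and 565 of 1402 CPM in KO-RA and 203 of 1079 CPM in KO-O2, so the mean sum of the other genes was not lower. Of 15 macrophage markers, 7 were called higher and 6 lower in WT, and 9 higher and 4 lower in GSDMD-KO. They summed to 661 to 1090 CPM in WT-RA, 556 to 770 CPM in WT-O2, 366 to 408 CPM in KO-RA and 446 to 601 CPM in KO-O2, with Fabp1 at 0 in all WT-O2 lungs, and their part in the values of the clearance genes was not tested. In KO-RA against WT-RA, 3 of the 15 macrophage markers were called lower and 0 higher (0.488% of all genes called). An unadjusted p under 0.05 was found for 11 of these markers and 8 of the 15 clearance genes (10.5% of all genes), and 0 clearance genes were called. Both lists hold Marco, so their counts are not independent. With the Y-linked covariate, 0 of all lung genes were called in KO-RA against WT-RA. Y-linked genes were present in 0 of 3 WT-RA and 2 of 3 KO-RA lungs, so the covariate overlaps with genotype and this fit cannot tell them apart. The call of the targeted gene Gsdmd in the main fit (edgeR adjusted p = 0.014) was lost with it too. Msr1, a macrophage scavenger receptor, rose from 2.35 ± 0.424 to 8.09 ± 1.28 CPM in WT (log2 fold change 1.78, SE 0.25, edgeR adjusted p = 5.6e-05). Cd36, a fatty acid receptor that capillary endothelium also carries, fell from 630 ± 134 to 200 ± 19.1 CPM (-1.66, SE 0.14, edgeR adjusted p = 4.6e-07). Bach2, a repressor active in alveolar macrophages and lymphocytes, fell from 25.7 ± 1.02 to 15.2 ± 0.295 CPM (-0.76, SE 0.09, edgeR adjusted p = 1.2e-05). Lymphocyte markers were called lower in 9 of 10 cases in WT and 7 of 10 in GSDMD-KO. They summed to 188 to 201 CPM in WT-RA and 50.6 to 58.8 CPM in WT-O2, and to 124 to 210 CPM in KO-RA and 53.9 to 59.9 CPM in KO-O2, and their part in the value of Bach2 was not tested.

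Among transcription factors of type 2 cells, 9 of 22 were called higher and 3 lower in both genotypes. Nkx2-1, the factor that drives the surfactant protein genes, had a log2 fold change of -0.15 in WT (SE 0.07, edgeR adjusted p = 0.11), and Cebpa one of -0.07 (SE 0.09, edgeR adjusted p = 0.56). Of the other factors of the same families in this list, Foxa2 (0.59, SE 0.13, edgeR adjusted p = 0.0024), Etv4 (2.31, SE 0.53, 0.0073), Ehf (0.62, SE 0.19, 0.018), Elf3 (0.41, SE 0.14, 0.025) and Cebpb (0.38, SE 0.13, 0.028) were called higher in WT, and Foxa1 (0.03), Cebpd (0.16), Elf5 (0.08) and Etv1 (-0.33) were not called. In GSDMD-KO, Cebpa fell by 0.56 on the log2 scale (edgeR adjusted p = 2.1e-04) and Nkx2-1 was not called (0.08). The difference between the genotypes was not called for Cebpa (-0.49, SE 0.13, edgeR adjusted p = 0.39) or for any other of the 22 factors, of which 5 had an unadjusted p under 0.05. These factors are named outside the rule for naming genes, chosen after their values were seen. Sox9, a factor of the distal lung progenitors, rose from 4.25 ± 0.766 to 17.0 ± 3.32 CPM (2.00, SE 0.18, edgeR adjusted p = 8.9e-07). Stat3, which transmits cytokine signals, rose from 161 ± 12.8 to 273 ± 20.4 CPM (0.76, SE 0.09, edgeR adjusted p = 1.7e-05), and Nr3c1, the glucocorticoid receptor, fell from 176 ± 9.08 to 123 ± 8.76 CPM (-0.52, SE 0.09, edgeR adjusted p = 4.9e-04). Nr3c1 was not called in GSDMD-KO (-0.20, edgeR adjusted p = 0.10), and the difference between the genotypes was not called either (0.32, SE 0.13, edgeR adjusted p = 0.68).

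FGF receptor signalling lies upstream of Etv5. Of 23 genes of this pathway, 5 were called higher and 7 lower in WT, and 6 higher and 6 lower in GSDMD-KO, shares close to those over all genes (49.2% called in WT and 46.7% in GSDMD-KO). Fgfr4, a receptor, fell from 95.2 ± 14.2 to 35.9 ± 6.85 CPM in WT (log2 fold change -1.40, SE 0.14, edgeR adjusted p = 3.1e-06), and Il17rd, a membrane inhibitor of the pathway, from 55.0 ± 5.15 to 22.4 ± 1.28 CPM (-1.29, SE 0.09, edgeR adjusted p = 8.9e-08). Spred3, an intracellular inhibitor, rose from 7.91 ± 0.690 to 23.5 ± 1.45 CPM (1.57, SE 0.13, edgeR adjusted p = 3.7e-07). Of the pathway's ETS targets, Etv4 was called higher (2.31, SE 0.53, edgeR adjusted p = 0.0073), and Etv5 and Etv1 were not called in WT.

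**Figure D4:**
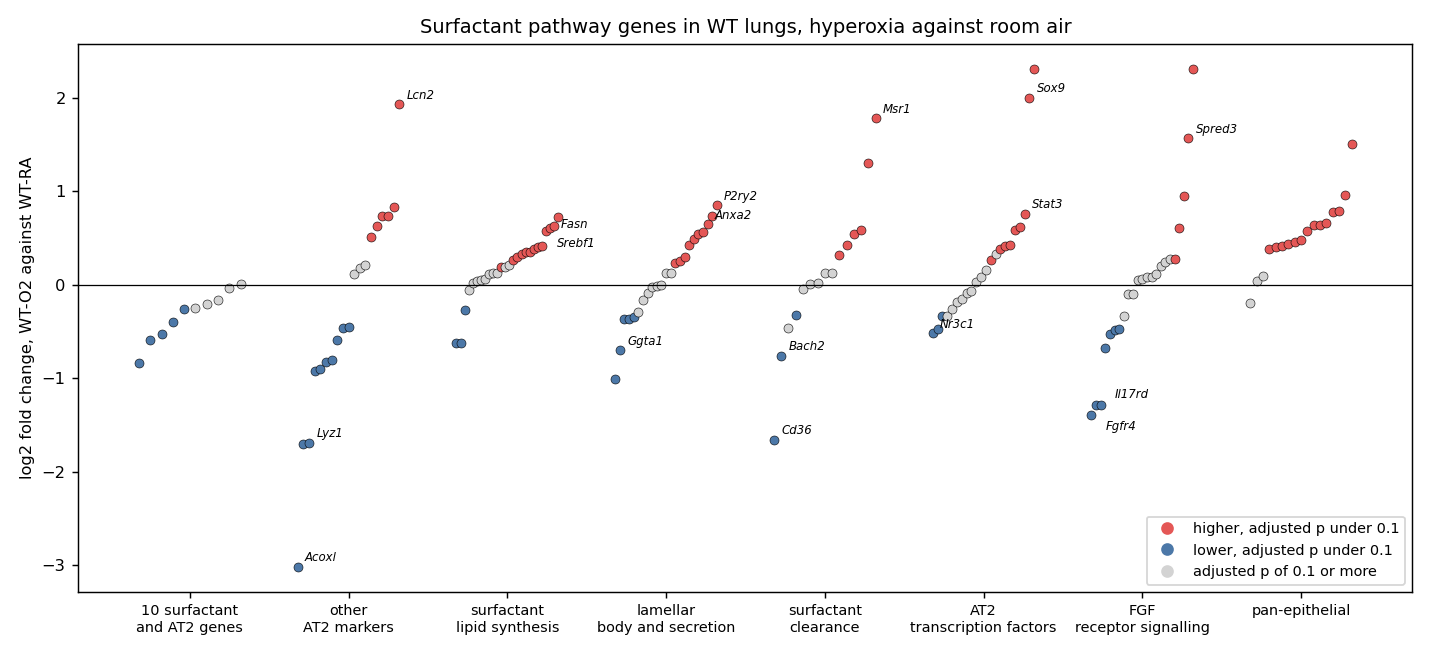
Log2 fold change of WT-O2 against WT-RA (vertical axis) for each tested gene of the surfactant set and of 7 related lists, ordered by value within a list, with genes of adjusted p under 0.1 in red (higher) or blue (lower). The 10 surfactant and type 2 genes lie between -0.84 and 0.0029, while most called genes of lipid synthesis and of the pan-epithelial list lie above 0.

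The genes outside the set that varied most like it were sought over the 12 lungs among 12177 genes of at least 5 CPM. The likeness was Pearson's r of a gene's log2 CPM with the mean centred log2 CPM of the 10 members, and it was highest for Rnase4 (0.98), Mlc1 (0.97), Galnt15 (0.96), Sgpp2 (0.96) and Dnase1l1 (0.96). These values include the contrast of hyperoxia with room air that all 12 lungs share. Rnase4, a secreted ribonuclease, went from 292 ± 44.1 to 190 ± 10.6 CPM in WT, and in GSDMD-KO it was at 282 ± 16.4 CPM in room air and 176 ± 29.8 CPM in hyperoxia. Over the deviations of the 12 lungs from their group means, the genes most like the set were Rnase4 (0.95), Igfbp6 (0.94), Cd82 (0.94), Zdhhc3 (0.93) and Baiap3 (0.92). This second measure leaves out the group means, and Cd82 was called higher in hyperoxia in both genotypes (log2 fold change 0.48 in WT and 0.68 in GSDMD-KO, edgeR adjusted p = 0.0021 and 1.6e-04), while Zdhhc3 was not called (0.11 and 0.10). Rnase4 was first by both measures, which are descriptions over few lungs and share the libraries' scaling.

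The mean of the members deviated from its group mean by -0.17 on the log2 scale in WT-RA mouse 3, by -0.11 in WT-O2 mouse 1 and by -0.10 in KO-O2 mouse 1, the 3 lowest lungs relative to their groups. KO-O2 mouse 2 was the highest, at 0.13. Against the mean of the other 9 members over these deviations, r was 0.85 for Abca3, 0.80 for Sftpa1 and Sftpd, 0.77 for Lpcat1 and 0.75 for Napsa. It was lowest for Sftpb, at 0.37, with Lamp3 at 0.41 and Etv5 at 0.43. Sftpb, with the smallest log2 fold change of the 10 in WT (0.0029), had the lowest of these values. Sftpd, whose log2 fold change in WT was also small (-0.04), had one of the highest.

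The retina, a tissue without type 2 cells, gives the low end for each gene. Photoreceptor genes summed to 55351 to 80728 CPM in the retinas and 6.55 to 9.14 CPM in the lungs, as the tissue labels state. In the 3 WT-RA retinas Sftpa1 and Slc34a2 had 0 counts, and the lung level was at least 42462-fold and at least 40969-fold higher, taking 3 counts over the group as the floor (0.0362 CPM). Sftpb had 14 counts over those 3 retinas, at 0.280, 0.114 and 0.171 CPM, and its ratio of lung to retina was 20005. Sftpc had 8 counts, all of them in WT-RA retina 1 and 0 in the other two, and Sftpd had 3 counts, and no ratio is given for either. The separate scaling of the tables by tissue limits these ratios to orders of magnitude.

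Lamp3 (1.12 ± 0.741 CPM), Napsa (6.02 ± 1.94), Abca3 (25.6 ± 1.47), Etv5 (22.9 ± 1.27) and Lpcat1 (125 ± 14.9) were counted in all 12 retinas. Their lung to retina ratios in WT-RA were 315, 49.5, 15.8, 4.63 and 2.69. The genes of the lipid transporter, the ETS factor and the lipid enzyme were thus closer between the tissues than the surfactant proteins. With Sftpc, which reached 34 counts in 1 retina, they made up the 6 members that passed the filter in the retina.

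Of these 6, 0 were called in the retina by edgeR for hyperoxia in WT (5.16% of all genes called) or in GSDMD-KO (7.82%), and 0 between the genotypes in hyperoxia (1.27%), between the genotypes in room air (0.00522%) or for the interaction (0.00522%). DESeq2 called 0 of them too in these comparisons. Napsa in GSDMD-KO was the 1 value with an unadjusted p under 0.05 (20.3% of all genes in that comparison). It was at 3.24, 5.01 and 5.20 CPM in KO-RA retinas and 8.26, 7.11 and 6.34 CPM in KO-O2 retinas, groups without overlap (higher in KO-O2 in 13.5% of all genes), with a log2 fold change of 0.69 (SE 0.27, edgeR adjusted p = 0.18). Y-linked transcripts differed between these groups, and with their sum as a covariate Napsa had a log2 fold change of 0.79 and was not called either. In the lung the same gene fell in hyperoxia, and the tissues differed in age, oxygen dose and recovery in room air, so the difference was not tested.

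**Figure D5:**
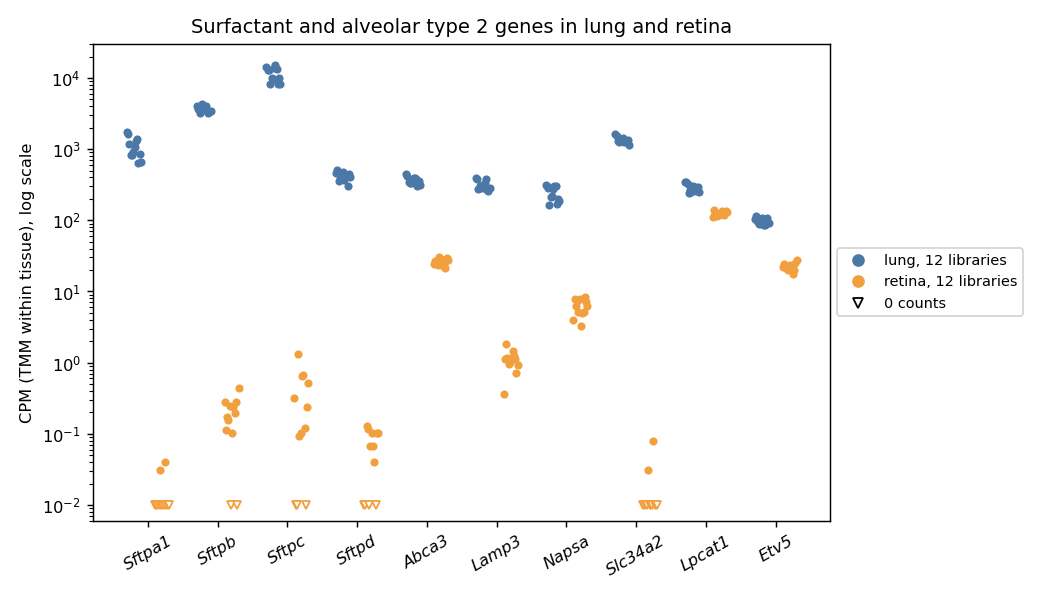
Level of each gene in CPM on a log axis in all 12 lungs (blue) and all 12 retinas (orange), with open triangles for libraries of 0 counts drawn at the lower edge. Lpcat1 and Etv5 lie closest between the tissues, at WT-RA ratios of 2.69 and 4.63, and Sftpa1 and Slc34a2 had 0 counts in most retinas.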

How the data were processed

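Whole lung and retina RNA was sequenced, and for either tissue the authors deposited expected counts, which kallisto estimated and tximport summed per gene. The submitters' notes give build mm10 and the study's methods GRCm39, so no gene coordinates were taken from the tables. Values above 0 lay within 0.001 of a whole number in 44.9% of lung and 0.35% of retina cases, so the retina table may have been rescaled, and tests were made within a tissue only. Symbols were matched by identifier for 35816 of 36109 lung and 35968 of 36595 retina genes. Retina libraries held 24863257 to 29093035 counts. For the abundant members, precision is limited by the spread among 3 mice and not by counting.

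Counts were rounded and fitted in R 4.3.3 with edgeR 4.0.16: TMM, filterByExpr by group, all 12 samples of a tissue with 1 term per group, glmQLFit with robust=TRUE and the two-sided quasi-likelihood F-test, adjusted by Benjamini-Hochberg over all genes tested (16819 in the lung, 19173 in the retina). Calls took an adjusted p under 0.1, and a further count required p under 0.05 and a 2-fold change. SE was obtained by dividing the size of the log2 fold change by the root of F. Intervals at 95% use the moderated degrees of freedom. In simulated data for hyperoxia in WT lungs (16819 genes), 45.0% of genes changed 1.5-fold and 86.2% of those changed 2-fold were recovered. That simulation changed only 40 genes 1.5-fold, 80 genes 2-fold and 80 genes 4-fold, at a single dispersion for all genes. In the real comparison 49.2% of genes were called, so these rates do not give the power of the tests made here.

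The members and lists were chosen with earlier results of these data known. Named were all 10 members, the 3 genes of smallest p in WT hyperoxia from each pathway list, summed levels and defining markers of cell type lists, the 5 genes most like the set by either measure, and Gsdmd. From the lipid synthesis list, 1 gene that this rule picks is not reported here. Alternatives were RLE factors, no factors, DESeq2 1.42.0, no filter on low counts, only the 6 samples compared, a 1.5-fold threshold, summed Y-linked expression as a covariate (in the retina added after seeing the data), and each mouse left out. Promoter sequences are RefSeq's on GRCm38.p6. Transcript lengths are those of GENCODE principal transcripts. Libraries of a group differed far beyond counting noise, so none was counted as a duplicate.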

Additional observations from a re-analysis of the deposited data

How the results depend on the processing

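Hyperoxia in WT lungs gave 5 called members, 5 to 6 under RLE factors, no factors, DESeq2, no filter, only the 6 samples compared and the Y-linked covariate, and 4 to 8 when a mouse was left out. The value of 8 came without WT-RA mouse 3. Hyperoxia in GSDMD-KO lungs gave 5, then 5 to 6 and 4 to 6. Sftpa1, Sftpc and Napsa were called lower in both genotypes under every one of these settings, and Lpcat1 in WT. The genotype and interaction counts of members stayed at 0 in both tissues under all settings run. At 1.5-fold, 2 members in WT and 3 in GSDMD-KO passed, against 0 at 2-fold and 23.3% and 21.4% of all genes at 1.5-fold. No called value changed sign.

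Over all lung genes, DESeq2 called 87 in KO-O2 against WT-O2 (7 by edgeR), 418 in KO-RA against WT-RA (82) and 110 for the interaction (1). With the Y-linked covariate, which overlaps with genotype in the lung, these were 2, 0 and 0. Without WT-RA mouse 3, KO-RA against WT-RA gave 604. In the retina, DESeq2 called 1915 and 2566 genes for hyperoxia in WT and GSDMD-KO (990 and 1500 by edgeR), 1001 in KO-O2 against WT-O2 (244), 758 in KO-RA against WT-RA (1) and 569 for the interaction (1). With 1 mouse left out, these edgeR counts ran in the retina from 361 to 1278 for hyperoxia in WT (lowest without WT-RA mouse 2), 374 to 1733 in GSDMD-KO (lowest without KO-O2 mouse 2), 12 to 351 in KO-O2 against WT-O2 (lowest without KO-O2 mouse 3) and 0 to 1 in KO-RA against WT-RA, and reached 340 for the interaction without KO-O2 mouse 1. Without normalization factors they were 2596 for hyperoxia in WT, 97 for KO-O2 against WT-O2 and 485 for KO-RA against WT-RA, and with only the 6 retinas compared 633 and 835 for hyperoxia in WT and GSDMD-KO, 110 for KO-O2 against WT-O2 and 0 for KO-RA against WT-RA, and with the Y-linked covariate, chosen for the retina after seeing the data, 384, 717, 116 and 1, so the shares of all retinal genes called are loose. In the lung, leaving out 1 mouse gave 1 to 35 in KO-O2 against WT-O2 (highest without KO-O2 mouse 3), 2 to 604 in KO-RA against WT-RA (lowest without KO-RA mouse 3) and 0 to 45 for the interaction (highest without WT-RA mouse 3). The cause was not tested. No paired analysis was possible because the labels give the mice no numbers shared between groups.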
